A study of Mus musculus with 6 samples.

Results

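The 3 genes of ketone body metabolism examined here, *Bdh1*, *Oxct1* and *Acat1*, were found by their gene symbols and are 3 of the 16448 genes in the table of normalized counts from isolated mouse ventricular cardiomyocytes (CMs). They encode the mitochondrial enzymes that turn circulating ketone bodies into acetyl-CoA. BDH1, 3-hydroxybutyrate dehydrogenase, interconverts β-hydroxybutyrate and acetoacetate. OXCT1, also called SCOT, moves coenzyme A from succinyl-CoA to acetoacetate and is the committed step of ketone body use, which the liver lacks. ACAT1 is the mitochondrial thiolase that splits acetoacetyl-CoA into acetyl-CoA, and it also closes the breakdown of isoleucine. Ketone bodies are made mainly in the liver and are an oxidative fuel of the heart beside fatty acids, glucose and lactate.

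RNA-seq was carried out on CMs of C57BL/6 mice aged 8 to 12 weeks, with 3 CtrlCre and 3 Cpt1bcKO samples. CtrlCre mice carried αMHC-Cre with intact *Cpt1b*. Cpt1bcKO mice carried the same transgene with both *Cpt1b* alleles floxed around exons 10 and 11, so Cre is present in both groups. The αMHC (*Myh6*) promoter drives Cre in CMs from embryonic stages. *Cpt1b* encodes the muscle enzyme that loads long-chain fatty acids onto carnitine for import into mitochondria. The comparison asks how genes of another mitochondrial fuel stand in CMs in which this gene was targeted. The labels only number the samples of a group, whereas the study describes its replicates as separate mice.

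*Cpt1b* itself was counted at 1861, 893 and 1443 normalized counts in CtrlCre samples 1, 2 and 3 and at 211, 353 and 285 in Cpt1bcKO samples 1, 2 and 3, a log2 fold change of −2.27 (SE, standard error, 0.267, with an adjusted *P* value of 0.00338 in limma). With 1 prior variance for all genes the adjusted *P* value of *Cpt1b* was 0.0563. The sample values summed to 13393411 to 31722217. Genes of the mitochondrial genome and rRNA genes made up 78.1%, 76.7% and 74.8% of the sum in CtrlCre samples 1, 2 and 3. In Cpt1bcKO samples 1, 2 and 3 their share was 76.5%, 83.8% and 89.5%. Without those genes the sums lay between 3146414 and 3551692. *Xist*, 957 and 1080 in replicate 1 of CtrlCre and of Cpt1bcKO and 23 to 78 in the other 4 samples, together with Y-linked genes (a sum of 1 and 0 against 1378 to 1688), set replicate 1 of both groups apart as female. The ratios, and the fold changes of the 3 enzymes, *Cpt1b* and most named neighbouring genes, were therefore also computed without these 2 samples. The log2 fold change of *Cpt1b* was then −1.84 (adjusted *P* = 0.0039 in limma). All 12 CM markers examined were detected. Their sums were 653507 to 743821 in CtrlCre and 443535 to 657964 in Cpt1bcKO CMs, and all 12 had a negative fold change (median log2 fold change −0.38, with 3 at an unadjusted *P* value below 0.05 in limma). Fibroblast markers summed to 498 to 785 in CtrlCre and 1108 to 1338 in Cpt1bcKO CMs, without overlap. All 7 of the 8 fibroblast markers that could be tested were higher at an unadjusted *P* value below 0.05, 2 of them (*Col1a1* and *Lum*) after adjustment in limma. Of all tested genes, 6.66% were higher and 7.22% lower at an unadjusted *P* value below 0.05 in limma. After adjustment 0.66% were higher, and 5709 of 11364 had a negative fold change. Endothelial markers summed to 1195 to 2485 and 2182 to 2502, smooth muscle and pericyte markers to 1067 to 2214 and 1139 to 1704, and macrophage markers to 96 to 144 and 114 to 134. CtrlCre 1 had the lowest CtrlCre sum of endothelial (1195, against 2260 and 2485), smooth muscle and pericyte (1067) and fibroblast markers (498). All 7 endothelial markers had a positive fold change (median log2 fold change 0.34). Among these, *Tie1* alone was higher at an unadjusted *P* value below 0.05 (0.0239 in limma). Of 5 tested smooth muscle and pericyte markers, 3 had a positive and 2 a negative fold change. *Acta2* was lower without overlap (log2 fold change −1.20, unadjusted *P* = 0.00207, adjusted *P* = 0.0835 in limma). Red blood cell markers summed to at most 20 in any sample, and 0 of 5 adipocyte markers were listed.

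The sequences just upstream of the first transcribed base are shown so that the start of each gene can be placed beside its level. RefSeq upstream windows were matched for 2 of the 3 genes (GRCm38.p6, plus strand, 5′ to 3′, all in lower case because none of the motifs searched was found). The *Oxct1* window, chr15:4026178-4026382, holds 205 bases with a GC content of 47.8% and ends at the base before the annotated start of the gene. The first *Bdh1* window, chr16:31422047-31422279, holds 233 bases (GC 49.8%) and likewise ends at the start of the gene. The second *Bdh1* window, chr16:31428503-31428747, lies before an alternative start inside the gene and holds 245 bases (GC 60.4%). Over 32851 such windows of 27025 genes the median GC content was 52.4%.
Oxct1: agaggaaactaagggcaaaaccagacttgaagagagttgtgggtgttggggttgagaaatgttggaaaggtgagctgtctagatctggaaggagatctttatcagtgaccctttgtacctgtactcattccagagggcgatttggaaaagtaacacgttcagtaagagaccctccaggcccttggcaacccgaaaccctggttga
Bdh1, first start: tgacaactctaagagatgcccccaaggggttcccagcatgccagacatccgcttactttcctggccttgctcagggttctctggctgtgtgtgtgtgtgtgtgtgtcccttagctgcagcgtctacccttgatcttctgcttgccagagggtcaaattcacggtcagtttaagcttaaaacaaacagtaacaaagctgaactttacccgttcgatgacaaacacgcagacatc
Bdh1, start inside the gene: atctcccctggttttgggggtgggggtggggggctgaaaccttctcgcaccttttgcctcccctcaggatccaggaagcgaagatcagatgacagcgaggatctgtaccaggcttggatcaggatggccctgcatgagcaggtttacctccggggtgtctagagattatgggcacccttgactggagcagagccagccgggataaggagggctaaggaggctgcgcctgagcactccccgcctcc

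Both strands of the 3 windows were searched for 6 short motifs. These were the CCAAT box (CCAAT, present in 29.2% to 33.5% of all windows cut to the same lengths), the TATA box (TATAAA, 9.33% to 12.2%), the E-box (CACGTG, 4.48% to 5.85%), the nuclear receptor half-site (AGGTCA, 11.7% to 13.8%), the element of oestrogen-related receptors that contains this half-site (TCAAGGTCA, 0.326% to 0.384%) and the palindromic NRF1 site (0.469% to 0.724%). None of these motifs occurred in the 3 windows, which says nothing about sequence outside them. The counts do not separate transcripts by start, so the use of the start inside *Bdh1* was not measured.

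The 3 genes differed widely in level. On the scale of normalized counts per kilobase of exon, which allows genes to be compared, the CtrlCre means were 2077 for *Oxct1*, 399 for *Acat1* and 74.4 for *Bdh1*. Among the tested genes with an exon length, ranked by that mean, *Oxct1* stood within the top 0.493%, *Acat1* within the top 2.34% and *Bdh1* within the top 14.1%. In Cpt1bcKO CMs the means per kilobase were 1586, 384 and 110. The order *Oxct1*, *Acat1*, *Bdh1* was the same in all 6 samples with no overlap between genes. The lowest *Oxct1* value per kilobase was 1313 (Cpt1bcKO 3) and the highest *Acat1* value 502 (Cpt1bcKO 1). The lowest *Acat1* value was 316 (Cpt1bcKO 2), against 133 for the highest *Bdh1* value (Cpt1bcKO 1).

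**Figure D1:**
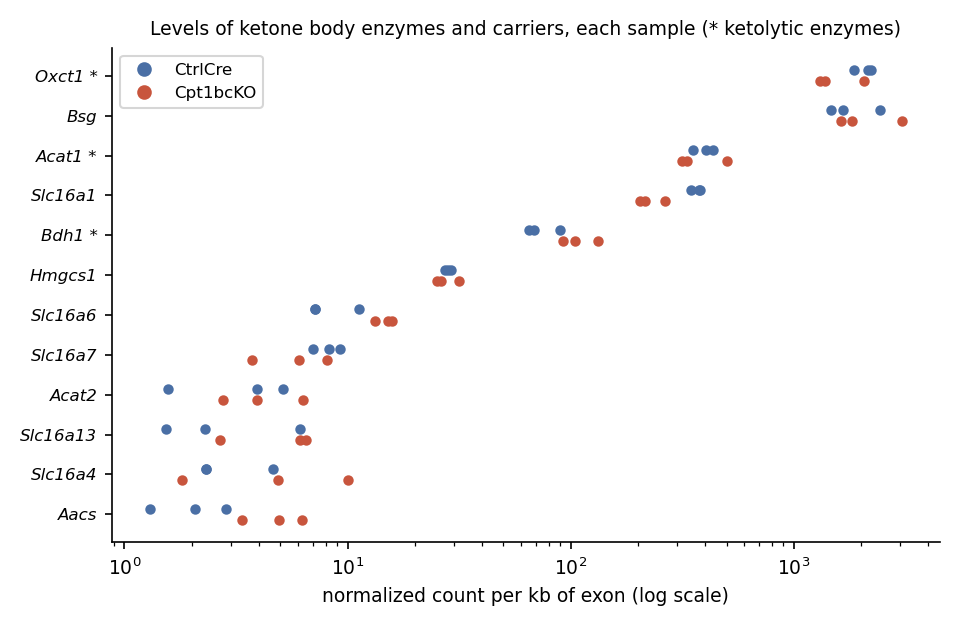
Levels of the 3 enzymes (asterisk) and of the tested ketone enzymes and carriers beyond them, as normalized counts per kilobase of exon on a log axis, with 1 point per sample (blue, CtrlCre; red, Cpt1bcKO). *Oxct1* had the highest CtrlCre mean (2077 per kilobase), with *Bsg* overlapping it, and *Acat1* (399) and *Bdh1* (74.4) lay on either side of *Slc16a1*.

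The means of the 3 genes moved in different directions between the groups, and 0 of the 3 passed an adjusted *P* value of 0.05, where 1.57% of all tested genes did (0.66% higher and 0.906% lower in Cpt1bcKO CMs). At an unadjusted *P* value below 0.05 there was 1 of the 3 genes, *Bdh1*, which was higher, against 13.9% of all tested genes (6.66% higher and 7.22% lower). Complete separation of the groups was seen in 1 of the 3, again *Bdh1*, against 18.7% of all tested genes (9.13% with Cpt1bcKO above and 9.6% with Cpt1bcKO below). With a set of only 3 genes, 1 such gene is not set apart from these backgrounds.

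*Bdh1* (ENSMUSG00000046598, plus strand, chr16:31422280-31458901, GRCm38, 3888 bases of exon in 11 blocks), the first step from β-hydroxybutyrate, had 267, 348 and 253 normalized counts in CtrlCre samples 1, 2 and 3. It had 517, 408 and 360 in Cpt1bcKO samples 1, 2 and 3. All 3 Cpt1bcKO samples lay above the 3 CtrlCre samples, the closest pair being Cpt1bcKO 3 (360) and CtrlCre 2 (348). The means were 289 ± 51.3 and 428 ± 80.5 (SD, n = 3 each), a 1.48-fold higher level on the log2(value + 1) scale with a 95% interval of 1.11 to 1.97. The log2 fold change was 0.56 (SE 0.187). Its unadjusted *P* value was 0.0129 and its adjusted *P* value 0.205 in limma with Benjamini–Hochberg adjustment, so *Bdh1* did not pass the threshold over all genes. A larger log2 fold change in either direction was found in 18.4% of tested genes, and a smaller *P* value in 6.27%. Without replicate 1 of both groups the log2 fold change was 0.37 (SE 0.185, unadjusted *P* = 0.0748, adjusted *P* = 0.338 in limma), and the 2 remaining Cpt1bcKO samples were still above both remaining CtrlCre samples. An annotated antisense gene, *Gm15743*, shares 533 exon bases with *Bdh1* and is not listed in the table. Whether counting used the strand of the reads is not given in the sources used here. The study left out reads that overlapped more than 1 gene. Whether reads of *Gm15743* entered the *Bdh1* counts, or reads in the shared bases were left out, is therefore not known.

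*Oxct1* (ENSMUSG00000022186, plus strand, chr15:4026383-4155344, 3701 bases of exon in 20 blocks), the enzyme that activates acetoacetate, had 8219, 7937 and 6900 normalized counts in CtrlCre samples 1, 2 and 3. The Cpt1bcKO samples 1, 2 and 3 had 7642, 5102 and 4861. Cpt1bcKO samples 2 and 3 were below every CtrlCre sample, whereas Cpt1bcKO 1 lay inside the CtrlCre range. The means were 7685 ± 695 and 5868 ± 1541 (SD, n = 3 each), which gave a log2 fold change of −0.42 (SE 0.190, 95% interval −0.84 to 0.0049). On the linear scale this is 0.75 times the CtrlCre level (0.560 to 1.0). The *P* value was 0.0523 before and 0.364 after adjustment in limma, so no difference of *Oxct1* passed the threshold. Cpt1bcKO 1 moved the estimate most. Without it the log2 fold change was −0.62 (SE 0.148, unadjusted *P* = 0.0015, adjusted *P* = 0.0517 in limma), and without replicate 1 of both groups it was −0.57 (SE 0.127, unadjusted *P* = 0.00122, adjusted *P* = 0.0524). The unadjusted *P* value of *Oxct1* was therefore below 0.05 among the replicates numbered 2 and 3 alone, and the adjusted one remained just above it. *BC037032*, on the minus strand, shares 467 exon bases with *Oxct1* and was listed at 12 to 54 normalized counts. *Gm15632*, an antisense gene within the *Oxct1* span that shares 0 exon bases, was listed at 5 to 40.

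*Acat1* (ENSMUSG00000032047, minus strand, chr9:53580522-53610382, 3758 bases of exon in 12 blocks, no overlapping gene), the thiolase of the last step, had 1641, 1331 and 1521 normalized counts in CtrlCre samples 1, 2 and 3. In Cpt1bcKO samples 1, 2 and 3 it had 1886, 1189 and 1249. The groups overlapped on both sides, since Cpt1bcKO 1 was the highest of all 6 samples and Cpt1bcKO 2 and 3 were the lowest. The means were 1498 ± 156 and 1441 ± 386 (SD, n = 3 each), which gave a log2 fold change of −0.082 (SE 0.188, 95% interval −0.50 to 0.33, unadjusted *P* = 0.671, adjusted *P* = 0.885 in limma). The interval corresponds to 0.708 to 1.26 times the CtrlCre level. The sign was not stable. It was positive with scaling to the total without mitochondrial and rRNA genes (0.030), without Cpt1bcKO replicate 2 (0.041) and without Cpt1bcKO replicate 3 (0.0052), and it was −0.22 (SE 0.130, adjusted *P* = 0.411 in limma) without replicate 1 of both groups.

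**Figure D2:**
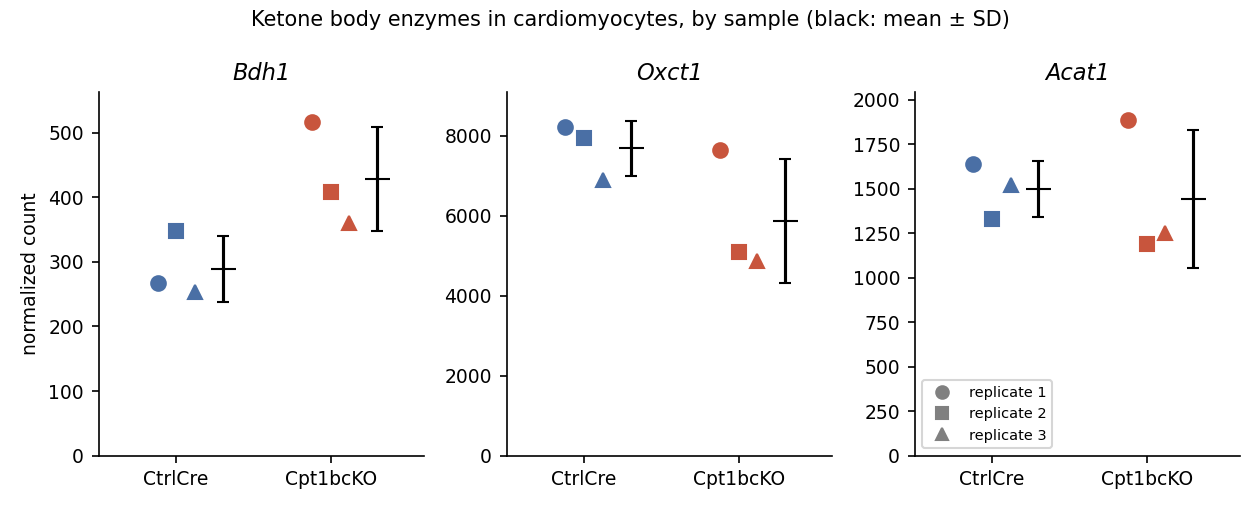
Normalized counts of *Bdh1*, *Oxct1* and *Acat1* in each sample, with the marker shape giving the replicate number and black bars the mean ± SD (n = 3). The *Bdh1* groups do not overlap (253 to 348 against 360 to 517), whereas for *Oxct1* and *Acat1* the Cpt1bcKO 1 sample lies within or above the CtrlCre samples.

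Replicate 1 of Cpt1bcKO had the highest value of its group for all 3 genes. The spread between samples was wider than counting error. The values of *Bdh1* correspond to an estimated 280 to 760 reads per sample, with a counting error of 3.63% to 6.03% of the value against a coefficient of variation between samples of 17.7% in CtrlCre and 18.8% in Cpt1bcKO CMs. For *Oxct1* (3760 to 11210 reads) the counting error was 0.945% to 1.63% and the variation 9.04% and 26.3%. For *Acat1* (970 to 2770 reads) it was 1.90% to 3.22%, and the variation was 10.4% and 26.8%. These read numbers are estimates from the spacing of low values, in which a single read was worth 0.682 to 1.294 normalized counts, and the errors cover counting alone.

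For 1 gene, an exact permutation test with 3 samples against 3 has 0.10 as its smallest *P* value. In RNA from a CM preparation, fewer cells of a type and less RNA per cell cannot be told apart. The fibroblast marker sums given above were higher and the CM marker sums were mostly lower in the same Cpt1bcKO samples, and their part in the values of *Bdh1* and *Oxct1* was not tested. The share of mitochondrial and rRNA genes was highest in Cpt1bcKO samples 2 and 3, which also had the lowest *Oxct1* and *Acat1* values. Its part in those values was not tested.

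Because a ratio of 2 genes within a sample does not depend on how that sample was scaled, the 3 enzymes were also compared with each other. The ratio of *Oxct1* to *Bdh1* counts was 30.8, 22.8 and 27.3 in CtrlCre samples 1, 2 and 3. It was 14.8, 12.5 and 13.5 in Cpt1bcKO samples 1, 2 and 3. The groups lay far apart relative to their spread, with means of 27.0 ± 4.0 and 13.6 ± 1.14 (SD, n = 3 each), a 1.98-fold lower ratio in Cpt1bcKO CMs. Per kilobase of exon, the group means of *Oxct1* and *Bdh1* stood at 27.9 to 1 in CtrlCre and 14.4 to 1 in Cpt1bcKO CMs.

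The ratio of *Acat1* to *Bdh1* was 6.15, 3.82 and 6.01 in CtrlCre samples 1, 2 and 3 and 3.65, 2.91 and 3.47 in Cpt1bcKO samples 1, 2 and 3. These groups were apart by a small margin, between CtrlCre 2 and Cpt1bcKO 1, and had means of 5.33 ± 1.30 and 3.34 ± 0.383. The ratio of *Oxct1* to *Acat1* was 5.01, 5.96 and 4.54 in CtrlCre and 4.05, 4.29 and 3.89 in Cpt1bcKO samples, in the same order. The means were 5.17 ± 0.727 and 4.08 ± 0.201, again without overlap. The 3 ratios are built from the same 3 genes and are therefore not independent of each other or of the fold changes above, and they are given with no test. Without replicate 1 of both groups the means were 25.0 and 13.0 for *Oxct1* to *Bdh1*, 4.92 and 3.19 for *Acat1* to *Bdh1* and 5.25 and 4.09 for *Oxct1* to *Acat1* (CtrlCre and Cpt1bcKO, n = 2 each), and the groups of each ratio stayed apart. The ratios describe the balance of the 3 transcripts in these samples and do not show which gene differed. Complete separation was seen in 18.7% of single tested genes, and its share among ratios of other gene pairs was not computed.

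**Figure D3:**
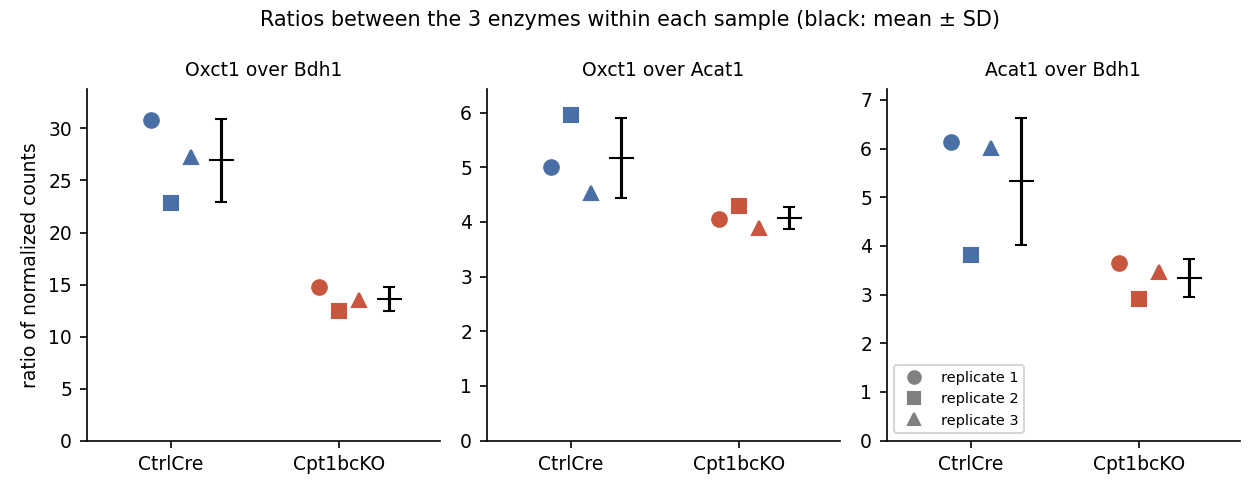
Ratios of normalized counts between the 3 enzymes within each sample, with the marker shape giving the replicate number and black bars the mean ± SD (n = 3). The ratio of *Oxct1* to *Bdh1* was 22.8 to 30.8 in CtrlCre and 12.5 to 14.8 in Cpt1bcKO CMs.

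Across the 6 samples, *Oxct1* and *Acat1* varied together (Pearson's r = 0.732 on the log2 scale), whereas *Bdh1* followed neither *Oxct1* (r = −0.214) nor *Acat1* (r = 0.0829). These are descriptions over 6 points that share libraries and scaling. Over 6795 genes (mean at or above 50), the profiles most like that of *Bdh1* were those of *Srxn1* (r = 0.990), which encodes sulfiredoxin, *Gna12* (0.984), a G protein subunit, and *Txnrd1* (0.982), cytosolic thioredoxin reductase. *Srxn1*, the closest of them, had 87, 114 and 87 normalized counts in CtrlCre and 183, 151 and 129 in Cpt1bcKO samples, highest in Cpt1bcKO 1 as *Bdh1* was. For *Oxct1* they were *Pdlim5* (0.991), a Z-disc scaffold protein, *Pnpla8* (0.990), a phospholipase, and *Cast* (0.990), the inhibitor of calpains. *Pdlim5* had 2854, 2758 and 2598 in CtrlCre and 2815, 2010 and 1866 in Cpt1bcKO samples, so its Cpt1bcKO 1 value also lay within the CtrlCre range. For *Acat1* they were *Dnttip1* (0.989), *Serf2* (0.988) and *Pnpt1* (0.987), a mitochondrial polyribonucleotide nucleotidyltransferase. A correlation above 0.9 was reached by 74 genes with *Bdh1*, 278 with *Oxct1* and 176 with *Acat1*.

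Other enzymes that act on ketone bodies or their precursors were expressed at a lower level per kilobase. Of 7 such genes examined, 3 were tested, and all 3 are cytosolic. At an adjusted *P* value below 0.05 in limma there were 0 of the 3, and 1 at an unadjusted one, which was higher (6.66% of all tested genes). Their median log2 fold change was 0.32 (all tested genes, −0.0013). This median is the value of *Acat2*, which had 4 to 16 normalized counts and was at −0.12 without CtrlCre replicate 3. *Aacs*, which activates acetoacetate in the cytosol for lipid synthesis, had 5, 11 and 8 normalized counts in CtrlCre and 13, 24 and 19 in Cpt1bcKO samples. Every Cpt1bcKO sample was above the CtrlCre samples (log2 fold change 1.14, SE 0.452, unadjusted *P* = 0.0291, adjusted *P* = 0.286), at a level of few reads. *Acat2*, the cytosolic thiolase, had 10, 13 and 4 against 10, 7 and 16 (log2 fold change 0.32, adjusted *P* = 0.841). *Hmgcs1*, the cytosolic synthase of the cholesterol pathway, had 126, 129 and 133 against 145, 121 and 116 (log2 fold change −0.029, adjusted *P* = 0.963).

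Ketone bodies cross membranes through monocarboxylate carriers. Of 12 genes of carriers and their chaperones, 9 were listed and 6 tested, with a median log2 fold change of 0.39 (all tested genes, −0.0013). Of the 6, 4 had a positive and 2 a negative fold change. The median lies between *Bsg* (0.20) and *Slc16a4* (0.58). *Slc16a4* (7 to 39 normalized counts) and *Slc16a13* (4 to 17, log2 fold change 0.68) had low values. The negative ones were *Slc16a1* and *Slc16a7*. *Slc16a7* had 109, 98 and 83 against 96, 72 and 44 (log2 fold change −0.51, unadjusted *P* = 0.0997 in limma). After adjustment 1 of the 6 fell, where 0.906% of all tested genes did. This was *Slc16a1*, which encodes MCT1, the carrier of lactate, pyruvate and ketone bodies. It had 1690, 1673 and 1526 normalized counts in CtrlCre and 1176, 953 and 902 in Cpt1bcKO samples 1, 2 and 3, and all Cpt1bcKO samples were below all CtrlCre samples. The log2 fold change was −0.70 (SE 0.145, adjusted *P* = 0.0461 in limma). This call was near the threshold and was lost in 8 of 16 alternatives, over all of which the adjusted *P* value ranged from 0.00529 to 0.237. The 8 include leaving out any of the 3 CtrlCre samples (adjusted *P* of 0.133, 0.161 and 0.122 without replicate 1, 2 and 3) and leaving out Cpt1bcKO replicate 2 (0.237) or 3 (0.128). *Slc16a6*, a carrier known to export ketone bodies from hepatocytes, stood the other way, with 35, 55 and 35 against 74, 77 and 65 (log2 fold change 0.80, SE 0.248, unadjusted *P* = 0.00857, adjusted *P* = 0.173). Its groups did not overlap. *Bsg*, the chaperone of MCT1, is named after its values were seen, as are *Slc16a4*, *Slc16a7* and *Slc16a13*. *Bsg* had 4415, 3019 and 2665 against 5556, 3310 and 2950, with overlapping groups (log2 fold change 0.20).

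Of 7 genes for ketone body receptors and fasting hormone signalling, 2 were listed and only *Fgfr1*, an FGF receptor, passed the filter, with a log2 fold change of 0.098. Of 13 regulators linked to ketone metabolism genes, 12 were tested, 6 with a positive and 6 with a negative fold change (median 0.0016), or 8 and 4 with scaling to the total without mitochondrial and rRNA genes (median 0.11). After adjustment 0 of them passed, and 1 was higher at an unadjusted *P* value below 0.05 (6.66% of all tested genes), *Ppargc1b*, a coactivator of oestrogen-related receptors. *Ppargc1b* had 227, 183 and 157 normalized counts in CtrlCre and 221, 255 and 281 in Cpt1bcKO samples, with overlapping groups (log2 fold change 0.42, unadjusted *P* = 0.0439, adjusted *P* = 0.344). Its unadjusted *P* value in limma was below 0.05 in 11 of 16 alternatives, with log2 fold changes of 0.30 to 0.66.

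The genes around each enzyme were then examined. *Oxct1* takes its coenzyme A from succinyl-CoA. Of 12 symbols of enzymes that make or use it, or that lead to it from propionyl-CoA (*Pcca*, *Pccb* and *Mcee*), 11 were tested. Of these, 8 had a negative and 3 a positive fold change, with a median of −0.065. With scaling to the total without mitochondrial and rRNA genes the split was 5 negative and 6 positive. *Mut*, methylmalonyl-CoA mutase, which forms succinyl-CoA, was the one gene of them with an unadjusted *P* value below 0.05, being lower, as were 7.22% of all tested genes. It had 1054, 992 and 914 normalized counts in CtrlCre and 771, 590 and 604 in Cpt1bcKO samples, without overlap (log2 fold change −0.60, unadjusted *P* = 0.00252, adjusted *P* = 0.0933). Without Cpt1bcKO replicate 1 its adjusted *P* value in limma was 0.0276. Leaving out any other single sample gave 0.193 (without CtrlCre 3) to 0.387 (without Cpt1bcKO 2). It was below 0.05 in 3 of 16 alternatives.

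*Acat1* is a thiolase, and of 7 related thiolase genes, 5 were tested. All 5 had a positive fold change (median 0.20), as had 5655 of all 11364 tested genes (median −0.0013). Among the 5 is *Acat2*, whose log2 fold change was −0.12 without CtrlCre replicate 3. With scaling to the total without mitochondrial and rRNA genes the list median was 0.31, against 0.11 for all tested genes. After adjustment 0 of the 5 passed, and 1 was higher at an unadjusted *P* value below 0.05, against 6.66% of all tested genes. This was *Hadhb*, the thiolase subunit of the mitochondrial trifunctional protein of long-chain fatty acid oxidation. It had 2600, 2942 and 2131 against 3420, 4176 and 3063 normalized counts, without overlap (log2 fold change 0.47, unadjusted *P* = 0.0187, adjusted *P* = 0.239).

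*Acat1* also ends the isoleucine route. In a list of that route, which also counts *Ivd* of leucine breakdown, 10 of 11 genes were tested, with 7 negative and 3 positive fold changes and a median of −0.43. After adjustment 2 of the 10 fell, where 0.906% of all tested genes did, and 4 were lower at an unadjusted *P* value below 0.05, against 7.22% of all tested genes. *Ppm1k*, the phosphatase that activates branched-chain ketoacid dehydrogenase, fell from 1301, 1226 and 1319 to 425, 451 and 604 normalized counts (log2 fold change −1.39, adjusted *P* = 0.00338, and 0.0532 with 1 prior variance for all genes). *Acadsb*, the dehydrogenase of short branched acyl-CoA in that route, fell from 1511, 1318 and 1327 to 925, 576 and 643 (log2 fold change −0.98, adjusted *P* = 0.0259). The call of *Acadsb* was lost in 7 of 16 alternatives, among them leaving out any single CtrlCre sample or Cpt1bcKO replicate 2 or 3 (adjusted *P* of 0.0833 without Cpt1bcKO 3 to 0.158 without Cpt1bcKO 2). With total scaling it was 0.0535 and with 1 prior variance 0.145. *Dbt*, a subunit of that dehydrogenase complex (log2 fold change −0.52, adjusted *P* = 0.186), and *Ivd*, an enzyme of leucine breakdown (−0.42, adjusted *P* = 0.172), had unadjusted *P* values of 0.0102 and 0.00836. *Acat1* itself, with a log2 fold change of −0.082, was not among these genes, and its difference from them was not tested.

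Without replicate 1 of both groups, the log2 fold changes of these neighbouring genes kept their direction. *Acat2* was not tested there, and *Bsg*, *Slc16a4*, *Slc16a7* and *Slc16a13* were not examined. *Slc16a1* (−0.78, adjusted *P* = 0.0144), *Ppm1k* (−1.28, adjusted *P* = 0.00459) and *Acadsb* (−1.12, adjusted *P* = 0.0039) passed the threshold in limma, and *Mut* did so as well (−0.67, adjusted *P* = 0.0316). *Ppargc1b* moved by the largest log2 amount of them, from 0.42 to 0.66 (adjusted *P* = 0.0896). *Aacs* was at 1.11, *Slc16a6* at 0.68, *Hadhb* at 0.51, *Dbt* and *Ivd* at −0.43, *Hmgcs1* at −0.14 and *Fgfr1* at 0.12, with adjusted *P* values of 0.139 (*Ivd*) to 0.888 (*Fgfr1*).

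**Figure D4:**
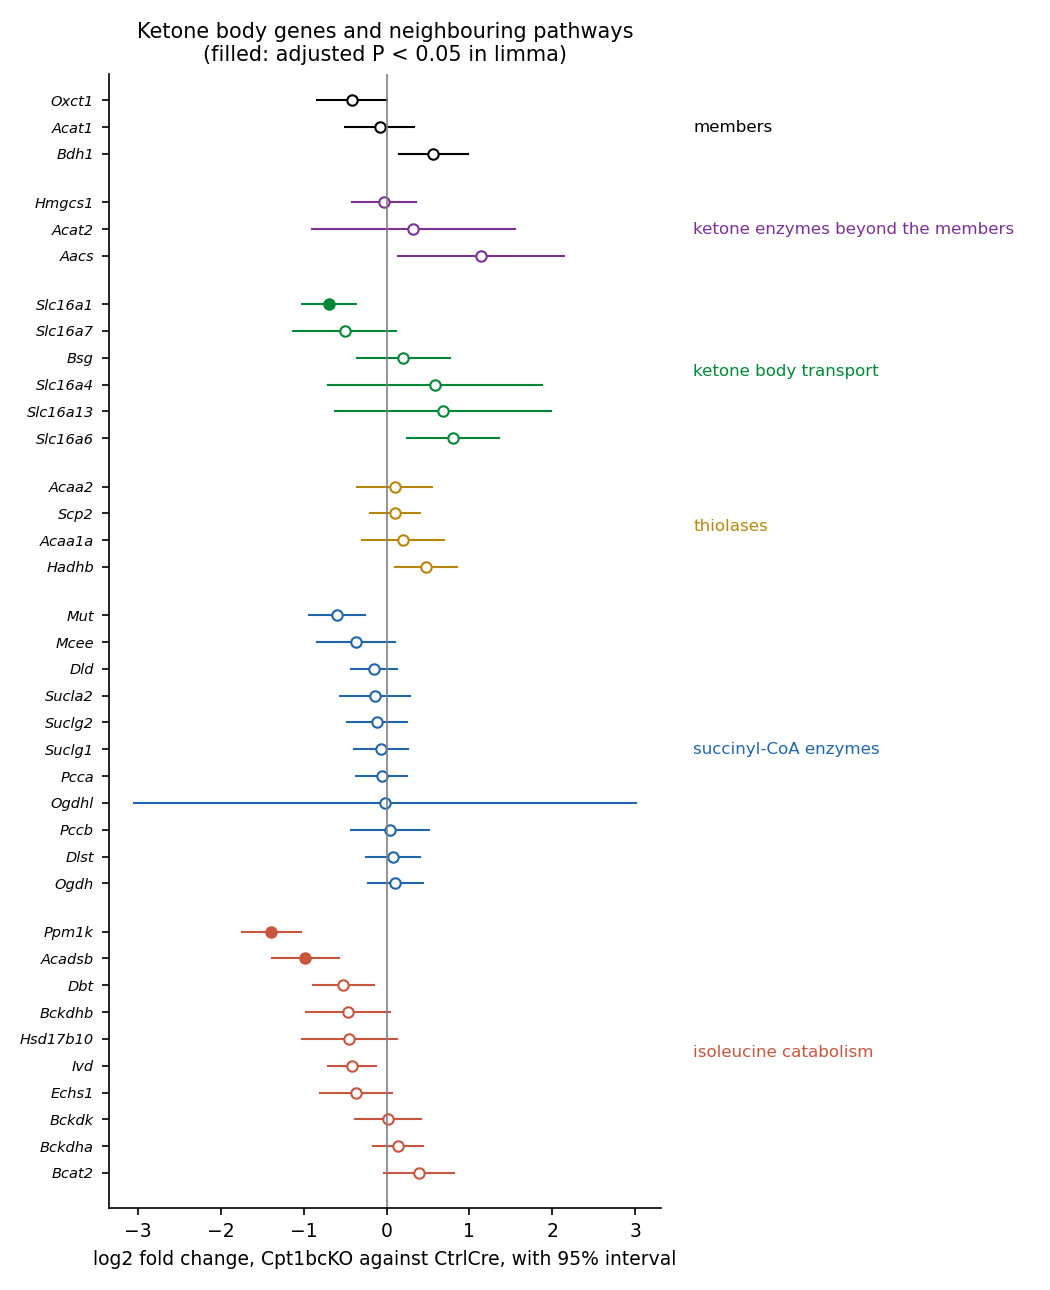
Log2 fold changes (Cpt1bcKO against CtrlCre, points) with 95% intervals (lines) for the 3 enzymes and for the tested genes of neighbouring pathways, with *Acat2* drawn once under the ketone enzymes. Filled points mark an adjusted *P* value below 0.05 in limma, reached by *Slc16a1*, *Ppm1k* and *Acadsb* and by 0 of the 3 enzymes.

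How firmly the 3 fold changes stand was examined under 16 alternative settings. *Bdh1* was positive in all 16 (0.37 to 0.70), with an unadjusted *P* value below 0.05 in 14 of 16 and adjusted *P* values of 0.0610 to 0.487 in limma. *Oxct1* was negative in all 16 (−0.62 to −0.30), with an unadjusted *P* value below 0.05 in 4 of 16 and adjusted *P* values of 0.0517 to 0.744. *Acat1* ranged from −0.29 to 0.041, and its adjusted *P* value was at least 0.303 in each. In each of these settings 0 of the 3 genes passed after adjustment. Scaling to the total without mitochondrial and rRNA genes moved the median log2 fold change of all tested genes from −0.0013 to 0.11. Relative to that median, the log2 fold changes were then 0.57 for *Bdh1*, −0.41 for *Oxct1* and −0.078 for *Acat1*, against 0.56, −0.41 and −0.081 as reported.

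**Figure D5:**
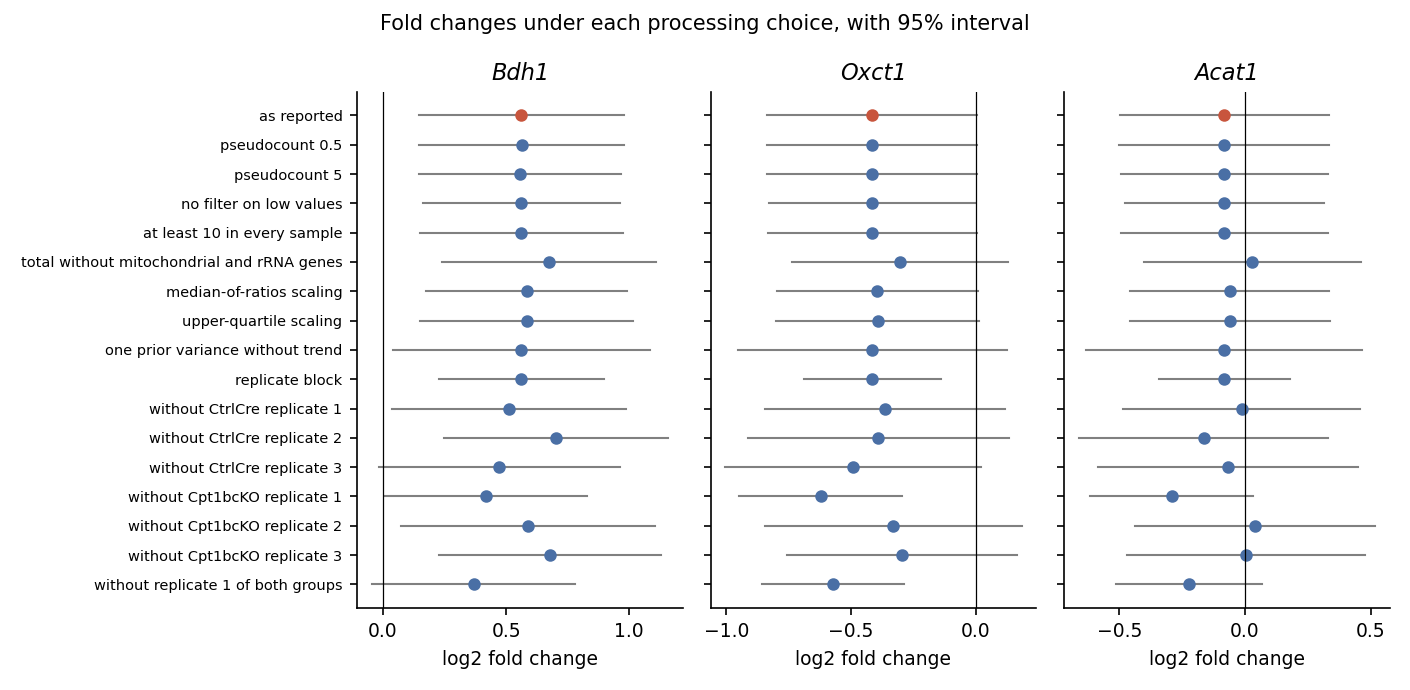
Log2 fold changes of *Bdh1*, *Oxct1* and *Acat1* with 95% intervals as reported (red) and under 16 alternative settings (blue), with a line at 0 and a separate axis for each gene. The points stay above 0 for *Bdh1* (0.37 to 0.70) and below 0 for *Oxct1* (−0.62 to −0.30), and lie on both sides of 0 for *Acat1*.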

How the data were processed

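RNA-seq of isolated adult CMs was analysed in 3 CtrlCre and 3 Cpt1bcKO samples. Per the labels and the study's methods, stranded total RNA libraries were sequenced. The submitters' processing notes name FastQC 0.11.8, Trimmomatic 0.36, STAR 2.5.4b, featureCounts 1.6.0, DESeq2 1.14.1 and the mm10/GRCm38.p5 genome. The annotation release and the use of strand in counting are not given in the sources used here. The deposited values are a score, namely read counts after division by 1 size factor per sample and rounding by the authors, and raw counts were not used. Columns with the authors' own group means, fold changes and *P* values were not used.

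Values were transformed to log2(value + 1). Genes that reached 10 in 3 or more samples (11364 of 16448) were tested with limma 3.58.1 in R 4.3.3 (lmFit, eBayes with trend), and all adjusted *P* values are from limma with Benjamini–Hochberg adjustment over all genes tested. Fold changes on this scale understate those of genes with low values. Values per kilobase use the exon union of GENCODE vM21, matched by identifier for 16427 genes (99.9%). An estimated 14900000 to 24500000 reads per sample fell on genes. Steps were tested on simulated data. Tables and figures were made with Python 3.11.15, numpy 2.4.6, pandas 2.3.3 and matplotlib 3.10.9.

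The 3 genes and the lists were chosen with earlier results of these data known. Named genes are the 3 enzymes, *Cpt1b*, every tested ketone enzyme (some are not reported here), the genes of each other pathway list with an adjusted or unadjusted *P* value below 0.05 (with none, the 2 tested genes of highest mean), and, for each enzyme, the 3 genes with a mean of at least 50 most correlated with it. Alternatives were pseudocounts of 0.5 and 5, other filters on low values, 3 other scalings, 1 prior variance, a block for the replicate number, and leaving out samples.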

Additional observations from a re-analysis of the deposited data

How the results depend on the processing

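All adjusted *P* values are from limma. The log2 fold changes of *Bdh1* and *Oxct1* kept their direction and missed the adjusted threshold in all 16 alternatives. Leaving out each sample in turn gave 0.42 to 0.70 for *Bdh1*, −0.62 to −0.30 for *Oxct1* and −0.29 to 0.041 for *Acat1*. *Acat1* changed sign with scaling to the total without mitochondrial and rRNA genes (0.030) and without Cpt1bcKO replicate 2 (0.041) or 3 (0.0052), at adjusted *P* values of 0.963 to 0.996. Other sign changes were −0.12 for *Acat2* (without CtrlCre replicate 3, range −0.12 to 0.62 over the samples left out), −0.010 for *Fgfr1* (without CtrlCre replicate 1, range −0.010 to 0.23), and, for *Hmgcs1*, 0.082 (total scaling), 0.0044 and 0.035 (without Cpt1bcKO replicate 2 and 3, range −0.13 to 0.035). *Cpt1b* kept its value of −2.27 with 1 prior variance without trend, at an adjusted *P* value of 0.0563. The cause of these changes was not tested.

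The number of genes with an adjusted *P* value below 0.05 over the whole table, 178 as reported, was 41 without trend and 40 to 305 with each sample left out (40 without Cpt1bcKO replicate 2, 305 without Cpt1bcKO replicate 1). At an unadjusted *P* value below 0.05 it was 972 to 2208 with each sample left out. Of those genes, 48.0% were higher as reported and 70.7% with total scaling (1221 higher, 505 lower). The carrier list had 0 genes called with total scaling, upper-quartile scaling or no trend, and 0 to 1 with a sample left out. The isoleucine list had 1 with total scaling, 0 without trend and 1 to 2 with a sample left out. The succinyl-CoA list had 1 without replicate 1 of both groups and 0 to 1 with a sample left out. With a value of at least 10 required in every sample, *Aacs* and *Acat2* were not tested.

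The labels tie nothing to the replicate numbers, although the samples numbered 1 are both female by *Xist* and Y-linked genes and the other 4 male. Deviations from the group means correlated at 0.376, 0.255 and 0.0684 for same-numbered pairs 1, 2 and 3 and at −0.329 to 0.147 for other pairs, so not every sample correlated best with its own number. With the replicate number as a block, 603 genes had an adjusted *P* value below 0.05, and that of *Bdh1* was 0.0610, of *Oxct1* 0.0848 and of *Acat1* 0.746, at the same fold changes. The block gave 1 called gene each in the thiolase list (*Hadhb*, adjusted *P* = 0.0223) and the succinyl-CoA list (*Mut*, 0.0125) and 4 in the isoleucine list, where *Dbt* (0.0481) and *Ivd* (0.0393) were added. Values near 10 rest on roughly 10 reads, which limits *Aacs* and *Acat2*.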
